A study of Homo sapiens with 48 samples.

Results

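RELA and RELB are 2 of the DNA-binding subunits of NF-κB, and the regions that each of them occupied in untreated L3.6pl cells were compared here. L3.6pl is a human pancreatic ductal adenocarcinoma (PDAC) cell line. The data were ChIP-seq peak lists, in which chromatin fragments held by an antibody are sequenced and regions with more reads than input chromatin are called as peaks. The 2 lists came from PBS-treated (vehicle) cells, with 3 replicates for each antibody, and each list was called on the merged replicates. Peaks on chromosomes 1 to 22 and X that shared at least 1 bp were joined into 1 locus, and a locus was called RELA only, both or RELB only by the lists it came from. This gave 4831 loci, of which 580 lay outside tandem repeats: 286 RELA only, 149 both and 145 RELB only. The series as a whole holds 406020 regions in 16 lists.

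The other lists used were H3K27ac and FOSL1 in vehicle, and RELA, RELB and H3K27ac after 30 min or 6 h of TNFα or TWEAK. All of them came from the same cell line, so no result extends to other PDAC cells, and the peak lists give neither the depth per sample nor the spread between replicates. Intervals and tests below therefore treat loci as units and describe these lists. H3K27ac marked the start of 7 of 7 epithelial genes looked at (such as the keratin and cadherin genes) and of 1 of 10 genes of other cell types, COL1A1. The share over all genes is not given here, so these counts are a description and do not test cell identity.

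RELA pairs mainly with p50, the product of NFKB1, and is the DNA-binding arm of canonical signalling downstream of TNF receptors. It is held in the cytoplasm by IκB proteins until these are degraded. RELB pairs mainly with p52, the product of NFKB2, and is released when p100 is processed in the noncanonical pathway downstream of receptors such as that of TWEAK. Both bind sites of the κB type, and their targets include the inhibitors and precursors of the pathway itself. FOSL1 is a subunit of AP-1, and H3K27ac marks active promoters and enhancers.

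Most basal peaks of both lists lay in tandem repeats, which held 61.9% of the RELA only loci, 93.2% of the loci in both lists and 92.4% of the RELB only loci. The remaining 580 loci were not all ordinary sequence either. A locus was called distinct when under 50% of the 32-base words around its summit occurred elsewhere in the genome, when its central 200 bp held no short tandem array and when it shared no such word with mitochondrial DNA. This definition was made after the lists had been seen. It left 319 loci, namely 191 RELA only, 76 both and 52 RELB only. Each locus was counted under 1 kind, arrays first, then mitochondrial sequence, then sequence repeated elsewhere. Counted so, sequence repeated elsewhere made up 63.4% of the RELB only loci (92 of 145), 28.9% of the loci in both lists (43 of 149) and 19.2% of the RELA only loci (55 of 286). The limit on repeated words alone left 227 RELA only loci, 94 loci in both lists and 52 RELB only loci. Short tandem arrays made up 39 RELA only loci, 18 loci in both lists and 1 RELB only locus. Mitochondrial sequence was found at 12 loci in both lists, at 1 RELA only locus and at 0 of 145 RELB only loci, which allows a share of up to 2.51% (exact 95% bound).

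**Figure D1:**
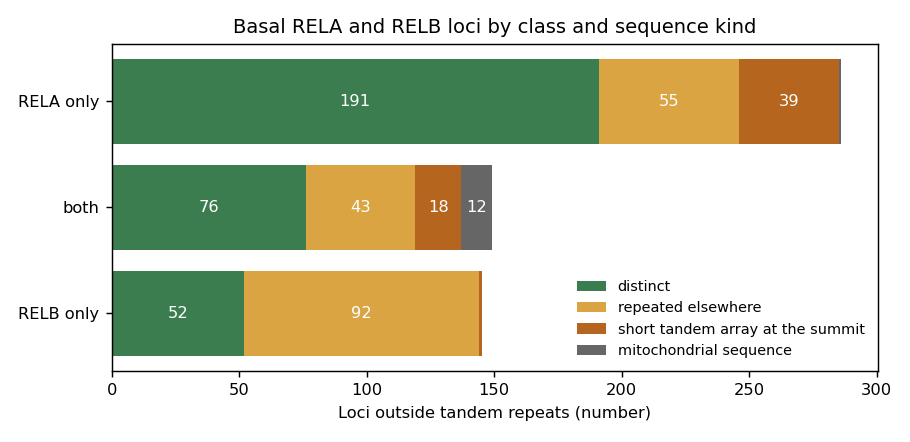
Number of basal loci outside tandem repeats in each class (x axis), split by the kind of sequence at the locus. Distinct sequence makes up 191 of 286 RELA only loci, 76 of 149 loci in both lists and 52 of 145 RELB only loci.

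The sequences below are chosen examples of the classes. Each run holds the 101 bases of hg38, plus strand, centred on the summit, with matches to the NF-κB consensus in capitals (GGG, a purine, 2 free positions, 2 pyrimidines and CC, read on both strands). The first 4 loci were called in both lists and lie at the starts of NFKBIA, TNFAIP3, NFKB2 and BIRC3. They are shown because these genes are inhibitors, a precursor and a survival factor of the pathway.
NFKBIA, chr14:35403902-35404002: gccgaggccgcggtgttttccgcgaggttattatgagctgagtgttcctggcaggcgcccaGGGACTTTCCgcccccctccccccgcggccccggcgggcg
TNFAIP3, chr6:137867167-137867267: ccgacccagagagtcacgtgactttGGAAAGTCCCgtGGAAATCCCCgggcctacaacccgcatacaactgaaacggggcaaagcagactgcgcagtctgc
NFKB2, chr10:102394440-102394540: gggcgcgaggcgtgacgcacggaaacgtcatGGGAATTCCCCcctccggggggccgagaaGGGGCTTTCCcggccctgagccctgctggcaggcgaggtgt
BIRC3, chr11:102317283-102317383: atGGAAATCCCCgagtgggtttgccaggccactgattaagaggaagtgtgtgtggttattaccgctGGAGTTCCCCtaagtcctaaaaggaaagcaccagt

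All 4 windows hold at least 1 match near the summit. The next 4 loci were called for RELA only, at the starts of 3 genes that encode NF-κB subunits and of C3, which encodes a complement component. C3 is shown because it was the strongest distinct RELA only locus and its window holds no match.
NFKB1, chr4:102501261-102501361: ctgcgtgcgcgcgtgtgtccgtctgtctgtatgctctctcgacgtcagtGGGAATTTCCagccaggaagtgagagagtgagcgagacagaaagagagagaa
REL, chr2:60881499-60881599: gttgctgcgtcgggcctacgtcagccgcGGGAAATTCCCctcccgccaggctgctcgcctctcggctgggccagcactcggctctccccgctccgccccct
RELB, chr19:45001299-45001399: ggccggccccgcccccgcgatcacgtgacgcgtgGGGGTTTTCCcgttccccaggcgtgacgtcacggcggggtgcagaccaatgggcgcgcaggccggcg
C3, chr19:6720693-6720793: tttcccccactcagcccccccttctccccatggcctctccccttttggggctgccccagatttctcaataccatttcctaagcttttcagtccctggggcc

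The following 2 loci were called for RELB only. The NFKB2 locus lies downstream of the shared NFKB2 locus above. The EGFR locus lies in an intron and was among the 8 strongest of its class with under 50% of words elsewhere. Both windows hold a match, unlike most loci of their class. A match was found at 24 of 145 RELB only loci and at 21 of 52 distinct ones.
NFKB2, chr10:102395627-102395727: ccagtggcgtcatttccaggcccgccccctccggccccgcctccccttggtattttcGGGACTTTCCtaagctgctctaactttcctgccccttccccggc
EGFR, chr7:55065281-55065381: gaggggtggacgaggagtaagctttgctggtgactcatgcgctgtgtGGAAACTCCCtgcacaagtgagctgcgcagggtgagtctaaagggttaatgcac

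The last window is the RELA only locus nearest to NRXN3, which had the highest fold enrichment of its class among loci with under 50% of words elsewhere. It is a run of GA repeats and was not counted as distinct.
NRXN3, chr14:78082954-78083054: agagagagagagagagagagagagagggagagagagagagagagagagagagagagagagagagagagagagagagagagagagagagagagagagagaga

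Of the RELA regions outside tandem repeats, 152 of 438 were shared with RELB, which is 34.7% (exact 95% interval 30.2 to 39.4). Of the RELB regions, 149 of 294 were shared with RELA, which is 50.7% (44.8 to 56.5). In distinct sequence, 28.5% of the RELA regions (76 of 267) and 59.4% of the RELB regions (76 of 128) were shared. The same 76 loci stand behind both of these shares, which differ through the unequal size of the lists.

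At loci called in both lists the 2 summits lay close together, with a median gap of 20 bp, and 138 of 149 pairs lay within 100 bp. Fold enrichment, the ratio of ChIP over input that the peak caller gives, was higher for RELA at 102 of 149 of these loci and at 58 of 76 distinct loci. The Spearman correlation of the RELA and RELB fold enrichments over loci was 0.76 for the 149 loci and 0.47 for the 76 distinct loci. These points share libraries and input, and the 2 factors were held by different antibodies. The values are therefore a description and do not compare the amounts bound. The highest values of both axes belonged to sequence that was not distinct.

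**Figure D2:**
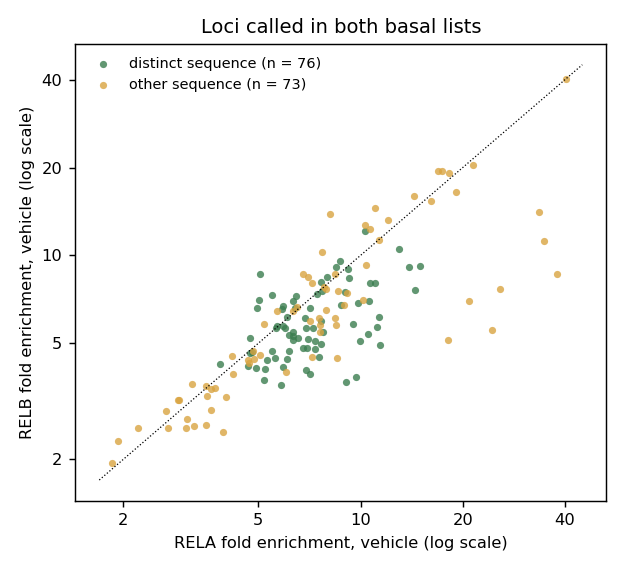
RELA fold enrichment (x axis) against RELB fold enrichment (y axis) in vehicle for the 149 loci called in both lists, on log scales, with the dotted line at equal values. Distinct loci (76) reach 14.9 for RELA and 12.1 for RELB, and the loci above that range are other sequence.

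RELA only loci in distinct sequence had a median RELA fold enrichment of 6.28 (range 3.80 to 12.9), and loci in both lists had a median of 6.92 (3.85 to 14.9). RELB only loci had a median RELB fold enrichment of 4.75 (3.28 to 10.2), against 5.64 (3.59 to 12.1) at loci in both lists. The ranges overlapped in both cases. A locus absent from a list may have had signal below the calling threshold, which a peak list cannot show.

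The NF-κB pathway genes carried many of these loci. Of 30 pathway and feedback genes listed, 11 had a RELA only locus in distinct sequence within 50 kb of a start site, against 1.76% of all protein-coding genes. A locus in both lists lay near 8 of the 30 genes, against 0.76% of all genes. A RELB only locus lay near 1 of the 30 genes, against 0.342% of all genes. In all, 17 of the 30 genes had a distinct locus of any class within 50 kb, against 2.74% of all protein-coding genes. The list was chosen with earlier results of these data known, so the counts are a description.

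Loci in both lists lay at genes that restrain the pathway or relay survival signals. At NFKBIA, which encodes the inhibitor IκBα, the locus chr14:35403791-35404124 had fold enrichments of 14.9 for RELA and 9.23 for RELB. TNFAIP3, which encodes the ubiquitin-editing enzyme A20, followed with 13.9 and 9.12 at chr6:137867108-137867317. NFKB2, which encodes p100 and p52, had 11.3 and 6.17 at its promoter. TNIP1, which encodes a partner of A20, had 11.2 and 5.71. These 4 summits lay within 173 bp of a start site.

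TRAF2, which encodes an adaptor of TNF receptors, had 10.7 for RELA and 8.06 for RELB at an intronic locus. BIRC3, which encodes the ubiquitin ligase cIAP2, had 10.6 and 6.97 at its promoter, and a weaker locus upstream of its neighbour BIRC2 had 6.90 and 4.06. CYLD, which encodes a deubiquitinase of the pathway, had 9.26 and 8.38. At each of these 8 loci the RELA value was the higher one.

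RELA only loci lay at the genes of 3 subunits, of further proteins of the IκB family and of an adaptor. NFKB1, which encodes p105 and p50, had a RELA fold enrichment of 8.71 with its summit 19 bp from the start site. The RELB gene had 8.64, and REL, which encodes c-Rel, had 6.28. At BCL3, which encodes a nuclear IκB protein, 2 loci had 7.81 and 6.86. The IκB genes NFKBIB, NFKBIE and NFKBIZ had 6.72, 6.67 and 5.81, and the NFKBIB summit lay at the start of the divergent gene SIRT2. TICAM1, which encodes the adaptor TRIF, had 6.35.

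NFKBIA and TNIP1 also carried a second, weaker RELA only locus. Its RELA fold enrichment was 4.96 at NFKBIA and 4.44 at TNIP1. NFKB2 in turn had a second locus called for RELB only, chr10:102395623-102395787, with a RELB fold enrichment of 4.72. All loci named at pathway genes were distinct sequence, and each held at least 1 NF-κB consensus match.

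**Figure D3:**
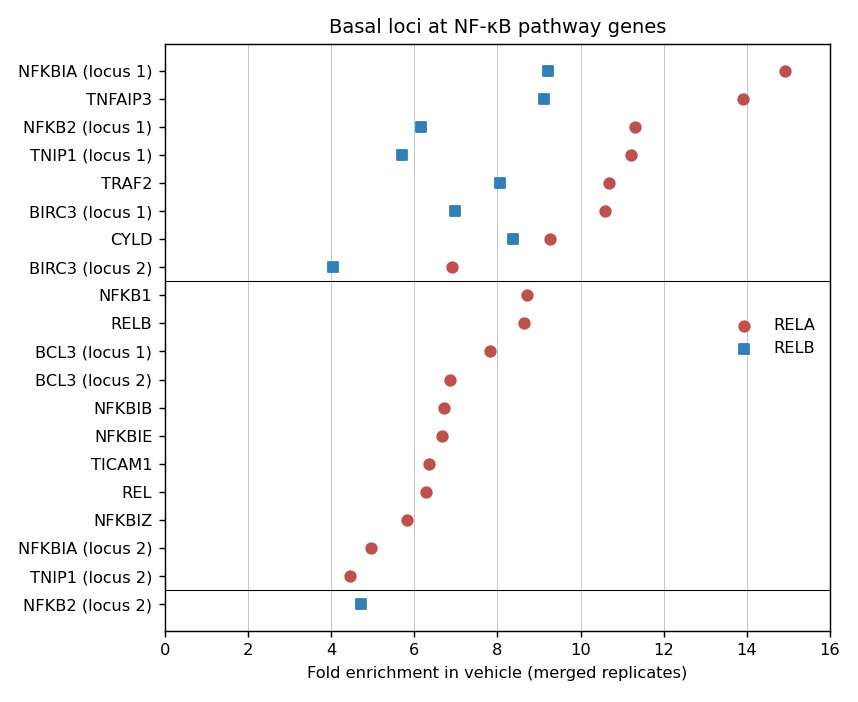
Fold enrichment in vehicle (x axis, merged replicates) at each basal locus within 10 kb of an NF-κB pathway gene, with circles for RELA and squares for RELB. Loci in both lists stand at the top (RELA 6.90 to 14.9), RELA only loci in the middle (4.44 to 8.71) and the RELB only locus of NFKB2 (4.72) at the bottom.

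Of 24 chemokine and cytokine genes, 6 had a distinct RELA only locus within 50 kb (CXCL3, CXCL5, IL1A, IL1B, IL23A and LIF), against 1.76% of all protein-coding genes. Within 10 kb the count was 2 (CXCL3 and LIF), against 0.591% of all genes. None of the 24 had a locus of the other classes within 50 kb, which is also the case for nearly all genes (0.76% had a locus in both lists and 0.342% a RELB only locus). LIF, which encodes a cytokine of the interleukin 6 family, had a RELA fold enrichment of 7.40 at 4195 bp. CXCL3, which encodes a neutrophil chemokine, had 5.51 at 106 bp, and this locus is also the one counted for CXCL5. IL1A and IL1B likewise shared 1 locus, with 6.63.

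Of 15 TNF receptor and ligand genes, 3 had a distinct locus in both lists within 50 kb, against 0.76% of all genes. These were FAS (5.30 for RELA and 4.39 for RELB), at 41037 bp and so not within 10 kb, and the TRAIL receptor genes TNFRSF10A (5.99 and 5.63) and TNFRSF10B (11.4 and 4.94), which encode death receptors. Of 14 AP-1 genes, MAFF (14.5 and 7.62) and JUNB (5.84 and 3.59) had a locus in both lists, at 5225 and 2133 bp. Of all genes, 0.76% had a distinct locus in both lists within 50 kb. FOSL1 had a RELA only locus (5.57) at 12444 bp, against 1.76% of all genes with one within 50 kb. MAFK had a RELB only locus (3.28) at 17568 bp, against 0.342% of all genes, and this locus lies at the promoter of another gene. Within 10 kb, 2 of the 14 AP-1 genes had a distinct locus of any class (MAFF and JUNB), against 0.948% of all genes. Among survival and adhesion genes, IRF1, which encodes an interferon regulatory factor, had a RELA only locus (6.14).

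By the naming rule, the 8 loci of highest fold enrichment per class were taken among loci with under 50% of words elsewhere, so stronger loci in repeated sequence were left out. In RELA only, 2 of the 8 were distinct, at C3 (12.9) and upstream of CP (12.3), which encodes ceruloplasmin. In both lists, 1 of the 8 was distinct, between genes at 64442 bp downstream of the RASSF10 start (13.0 for RELA and 10.5 for RELB). The 8 RELB only loci, a class in which that limit alone leaves the 52 distinct loci, were led by an intronic locus nearest to CUL3 (10.2). They included loci at the CRAMP1 promoter (6.20), between genes at 83306 bp from the KCNMB4 start (6.09) and in the EGFR intron (5.74).

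FOSL1, which was not used to form the classes, was most frequent at loci in both lists. It overlapped 82.6% of them (123 of 149), 68.2% of the RELA only loci (195 of 286) and 58.6% of the RELB only loci (85 of 145). As background, FOSL1 was called in the central 200 bp of 32.3% of H3K27ac regions without a basal RELA or RELB peak. These windows all lie in H3K27ac regions and are not centred on a factor summit, so they are not matched to the loci. Loci in both lists exceeded RELA only loci (odds ratio 2.21, adjusted p = 0.0034) and RELB only loci (odds ratio 3.34, adjusted p = 3.3e-05) by Fisher's exact test, two-sided, with Benjamini-Hochberg adjustment over 15 comparisons. In distinct sequence the shares were 92.1%, 82.2% and 73.1%. There the exact test of the difference from RELB only passed the threshold (odds ratio 4.30, adjusted p = 0.028), and the difference from RELA only did not (odds ratio 2.53, 95% interval 0.985 to 7.68, adjusted p = 0.17). With repeated sequence alone left out, the difference from RELB only did not pass the exact test (odds ratio 3.09, adjusted p = 0.069).

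H3K27ac lay within 500 bp of 74.5% of the summits in both lists, 69.6% of those in RELA only and 55.2% of those in RELB only, against 69.3% of FOSL1 regions without RELA or RELB. By the same exact test, RELB only was lower than both (odds ratio 2.37 for both over RELB only, adjusted p = 0.0018) and lower than RELA only (odds ratio 1.86 for RELA only over RELB only, adjusted p = 0.0084). Among distinct loci the shares were 96.1%, 89.0% and 84.6%, and no pair passed the threshold of the exact test (lowest adjusted p = 0.17). With repeated sequence alone left out, both directions turned, at 80.9% of both, 75.8% of RELA only and 84.6% of RELB only loci. The exact test then gave odds ratios over RELB only of 0.768 for both (adjusted p = 0.80) and 0.569 for RELA only (adjusted p = 0.50). Of the distinct loci in both lists, 67 of 76 had FOSL1 and H3K27ac together and 0 had neither.

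The NF-κB consensus was least frequent at RELB only loci, over all 580 loci and in distinct sequence. It was found at 59.4% of RELA only loci, 46.3% of loci in both lists and 16.6% of RELB only loci, against 4.25% of FOSL1 regions without RELA or RELB. By the exact test, RELA only exceeded RELB only with an odds ratio of 7.39 (adjusted p = 5.33e-17), and both exceeded RELB only with an odds ratio of 4.35 (adjusted p = 3.44e-07). Distinct loci held it at shares of 77.0%, 84.2% and 40.4%. The exact test then gave odds ratios against RELB only of 4.93 for RELA only (adjusted p = 8.8e-06) and 7.87 for both (adjusted p = 5.77e-06). With peaks of at least 5-fold enrichment alone, both against RELB only did not pass the exact test (odds ratio 2.45, adjusted p = 0.10).

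Between both and RELA only the direction depended on the sequence kept. By the exact test the share was lower at loci in both lists over all 580 loci (odds ratio 0.589, adjusted p = 0.018) and higher in distinct sequence (odds ratio 1.60, 95% interval 0.764 to 3.54, adjusted p = 0.41). Where a distinct locus had a match, the nearest one lay at a median of 15 bp from the summit in RELA only, 13 bp in both and 25 bp in RELB only. It lay within 30 bp at 119 of 147, 56 of 64 and 13 of 21 of these loci.

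The AP-1 motif TGANTCA was found at 30.4% of RELA only loci, 23.5% of loci in both lists and 17.9% of RELB only loci, against 50.1% of FOSL1 regions without RELA or RELB. RELA only exceeded RELB only by the exact test (odds ratio 2.00, adjusted p = 0.010). At distinct loci the shares were 36.1%, 42.1% and 44.2%, so that the order turned, and no pair passed the threshold of the exact test (lowest adjusted p = 0.50).

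A start site of a protein-coding gene lay within 1000 bp of 20.3% of RELA only summits, 14.1% of those in both lists and 7.59% of RELB only summits, against 19.7% of FOSL1 regions without RELA or RELB. RELA only exceeded RELB only by the exact test (odds ratio 3.10, adjusted p = 0.0018). Distinct summits had shares of 25.7%, 22.4% and 15.4%, and this difference no longer passed the exact test (odds ratio 1.90, 95% interval 0.807 to 4.98, adjusted p = 0.30). Outside promoters, distinct loci were mainly in introns (29.8% of RELA only, 35.5% of both and 36.5% of RELB only) and between genes (40.8%, 40.8% and 42.3%).

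**Figure D4:**
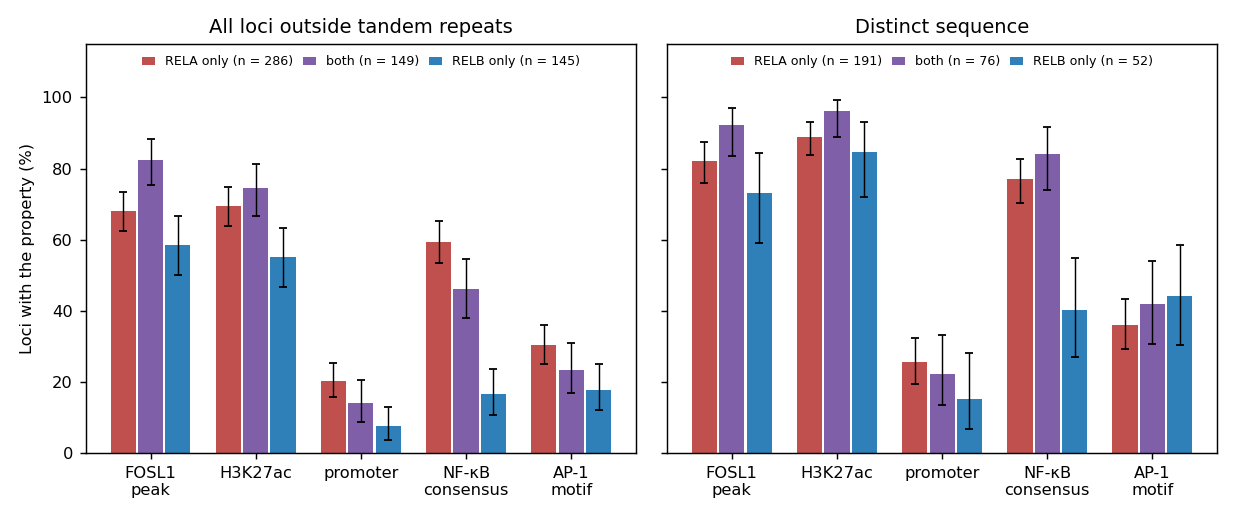
Share of loci (y axis, %) with each of 5 properties in each class, for all 580 loci outside tandem repeats (left) and for the 319 distinct loci (right), with exact 95% intervals over loci as error bars. The NF-κB consensus is lowest in RELB only in both panels (16.6% and 40.4%), while the order of the classes for the AP-1 motif differs between the panels.

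Distinct basal loci were also set against distinct regions that had a peak only after treatment, over 20 comparisons by Fisher's exact test. RELA only loci carried FOSL1 more often than RELA regions of 30 min of TNFα without a basal peak (82.2% against 47.0% of 7328, exact test, odds ratio 5.22, adjusted p = 9.47e-22). The same held by the exact test for H3K27ac in vehicle (89.0% against 62.6%, adjusted p = 4.72e-15), the NF-κB consensus (77.0% against 48.5%, adjusted p = 1.33e-14) and the AP-1 motif (36.1% against 18.9%, adjusted p = 9.75e-08). Promoters did not pass the exact test (25.7% against 23.3%, adjusted p = 0.51). Peak strength of the 7328 regions alone is not given here. Distinct RELA only loci found in the list of 30 min of TNFα had a median fold enrichment of 15.9 there. Over that whole list, tandem repeats and these loci included, it was 5.93. Whether the shares differ at equal strength was not tested.

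RELB only loci held the NF-κB consensus less often than RELB regions of 6 h of TWEAK without a basal peak (40.4% against 65.5% of 1152, exact test, odds ratio 0.358, adjusted p = 6.07e-04). Their shares of FOSL1 (73.1% against 60.1%), H3K27ac (84.6% against 74.0%), promoters and the AP-1 motif did not pass the threshold. Loci in both lists exceeded the same regions by the exact test in FOSL1 (92.1%, adjusted p = 3.58e-09), H3K27ac (96.1%, adjusted p = 3.16e-06) and the consensus (84.2%, adjusted p = 0.0010). Where RELB was called after 6 h of TWEAK, the median fold enrichment was 12.9 at RELB only loci and 14.8 at loci in both lists. Over that whole list, tandem repeats and these loci included, it was 6.11, and a difference at equal strength was not tested.

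The distinct loci were also looked up in the lists after treatment. RELA only loci were in the RELA list at 98.4% after 30 min and 97.4% after 6 h of TNFα, and at 77.0% and 55.0% after 30 min and 6 h of TWEAK. RELB was called at 83.2% of them (159 of 191) after 6 h of TWEAK, with a median fold enrichment of 9.60, and at 30.9% after 6 h of TNFα.

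RELB only loci were in the RELA list at 78.8% after 30 min and again after 6 h of TNFα, and at 28.8% and 9.62% after 30 min and 6 h of TWEAK. RELB was called at 86.5% of them after 6 h of TWEAK and 57.7% after 6 h of TNFα, but at 3.85% and 1.92% after 30 min of TNFα and of TWEAK. Of the 52 loci, 6 were in no RELA or RELB list after treatment, against 2 of 191 RELA only loci and 0 of 76 loci in both lists. Loci in both lists were called for RELA at 98.7% and 100% after 30 min and 6 h of TNFα, and for RELB at 98.7% after 6 h of TWEAK.

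The RELB lists of 30 min were short, with 153 regions outside tandem repeats after TNFα and 130 after TWEAK, against 296 in vehicle. They held 10.5% and 2.63% of the distinct loci in both lists, although all of these had a basal RELB peak. Among the 149 loci in both lists, 36 had a peak in each of the 10 lists for the 2 factors, and 0 of the 76 distinct loci did. The 36 loci were therefore all repeated, array or mitochondrial sequence.

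**Figure D5:**
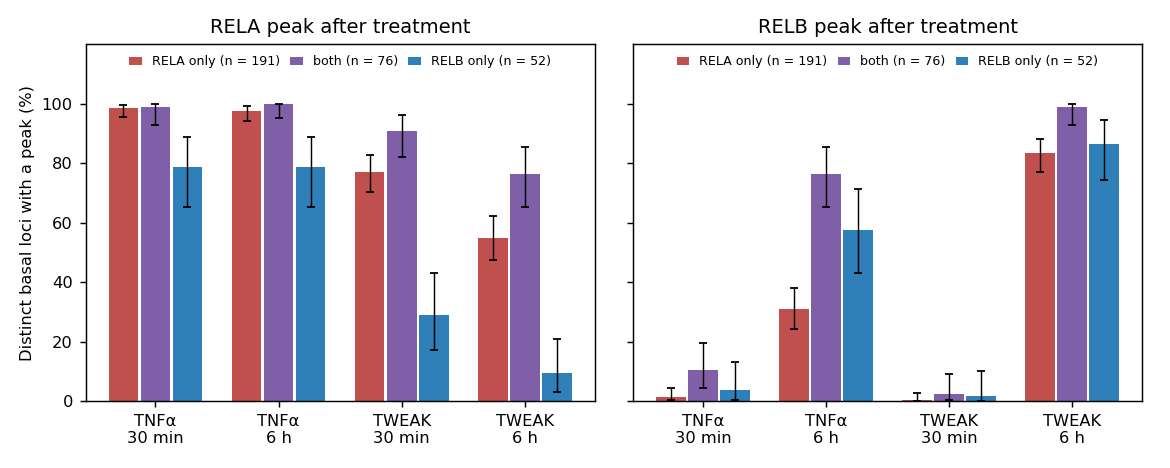
Share of distinct basal loci (y axis, %) with a RELA peak (left) or a RELB peak (right) after each treatment, by class, with exact 95% intervals over loci as error bars. RELA peaks were most frequent after TNFα (78.8% to 100%), and RELB peaks after 6 h of TWEAK (83.2% to 98.7%).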

How the data were processed

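ChIP-seq was done in L3.6pl cells in 48 samples, 16 conditions of 3 replicates, and groups were taken from the sample titles. Per the study's methods and the submitters' processing notes, alignment by the authors was to hg38 (Bowtie2 2.5.0), and MACS2 peaks were called over input without the shifting model. The deposited fold enrichment is the authors' ratio of ChIP over input, and the deposited −log10 q is the authors' significance of a peak. Lists were called on merged replicates, so depth and replicate error are unknown. The peak names of RELA at 30 min of TNFα also carry a replicate 1 tag. The treatment of reads with several matches is not given in the sources used here.

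Peaks on chromosomes 1 to 22 and X were used (2971 for RELA and 4085 for RELB in vehicle). A locus was in a tandem repeat when the 1000 bp around a summit matched itself at 0.4 or more of its bases at a shift of up to 400 bp, which 4.295% of 20000 random windows did. In a locus of both lists the RELA summit was used. A short tandem array was a self-match of 0.5 or more in the central 200 bp at shifts of up to 60 bp. Motifs were searched in the 200 bp around a summit, and genes came from GENCODE 44. Named loci were the 8 strongest per class with under 50% of words elsewhere (for both, by the smaller fold enrichment) and every locus within 10 kb of a pathway gene.

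Shares carry exact (Clopper-Pearson) 95% intervals, which cover counting of loci only. Classes were compared by Fisher's exact test (scipy 1.17.1, Python 3.11.15). The code was tested on simulated data with known answers. The members, lists and rules were chosen with earlier results of these data known, and the definition of distinct sequence was added after the values were seen. Some results are not reported here.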

Additional observations from a re-analysis of the deposited data

How the results depend on the processing

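Over 262 values of 30 results under 23 alternatives, 185 kept their direction and side of the threshold, or their size. In every alternative run, RELA only loci held the NF-κB consensus more often than RELB only loci. The definition of distinct sequence, and the settings without arrays or mitochondrial matches, were added after the values were seen. The cause of each change was not tested. Only merged lists were analysed, so a missing peak cannot be told from low depth. No paired analysis was possible because each condition has 1 list of merged replicates.

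With a self-match limit of 0.5, there were 330 loci in both lists and 315 RELB only loci. The shared share was 47.9% of RELA regions. Calls were gained (odds ratios 1.43 for H3K27ac in both against RELA only, 0.360 for promoter in both against RELA only and 0.430 for AP-1 motif in both against RELA only). With tandem repeats kept, there were 750 RELA only loci, 2177 loci in both lists and 1904 RELB only loci. The shared share was 74.8% of RELA regions. 1 call was lost (odds ratio 1.45 for NF-κB consensus in both against RELB only). Calls were gained (odds ratios 2.56 for H3K27ac in both against RELA only, 0.119 for promoter in both against RELA only and 0.182 for AP-1 motif in both against RELA only). 1 direction turned (odds ratio 0.901 for FOSL1 in RELA only against RELB only). Keeping only peaks enriched 5 times or more, there were 94 loci in both lists and 38 RELB only loci. The shared share was 27.1% of RELA regions and 71.2% of RELB regions. Calls were lost (odds ratios 1.64 for FOSL1 in both against RELA only, 1.55 for H3K27ac in both against RELB only, 1.66 for H3K27ac in RELA only against RELB only, 0.610 for NF-κB consensus in both against RELA only and 2.45 for NF-κB consensus in both against RELB only). Directions turned (odds ratios 0.935 for H3K27ac in both against RELA only, 0.372 for AP-1 motif in both against RELB only and 0.660 for AP-1 motif in RELA only against RELB only). With summits within 100 bp, 1 call was lost (odds ratio 0.707 for NF-κB consensus in both against RELA only). With peaks within 1000 bp joined, calls were lost (odds ratios 0.652 for NF-κB consensus in both against RELA only and 1.75 for AP-1 motif in RELA only against RELB only). With under 50% of words elsewhere, there were 94 loci in both lists and 52 RELB only loci. The shared share was 29.3% of RELA regions and 64.4% of RELB regions. Calls were lost (odds ratios 3.09 for FOSL1 in both against RELB only and 1.59 for promoter in RELA only against RELB only). Directions turned (odds ratios 0.959 for FOSL1 in RELA only against RELB only, 0.768 for H3K27ac in both against RELB only, 0.569 for H3K27ac in RELA only against RELB only, 1.16 for NF-κB consensus in both against RELA only, 1.13 for AP-1 motif in both against RELA only, 0.651 for AP-1 motif in both against RELB only and 0.574 for AP-1 motif in RELA only against RELB only). In distinct sequence, there were 76 loci in both lists and 52 RELB only loci. The shared share was 28.5% of RELA regions and 59.4% of RELB regions. Calls were lost (odds ratios 2.53 for FOSL1 in both against RELA only, 4.42 for H3K27ac in both against RELB only, 1.47 for H3K27ac in RELA only against RELB only and 1.90 for promoter in RELA only against RELB only). Directions turned (odds ratios 1.60 for NF-κB consensus in both against RELA only, 1.29 for AP-1 motif in both against RELA only, 0.917 for AP-1 motif in both against RELB only and 0.713 for AP-1 motif in RELA only against RELB only). The occupancy was 98.4% for RELA only in RELA after 30 min of TNFα, 83.2% for RELA only in RELB after 6 h of TWEAK, 0% for both in all 10 RELA and RELB lists, 78.8% for RELB only in RELA after 30 min of TNFα and 86.5% for RELB only in RELB after 6 h of TWEAK. Without short tandem arrays, 1 call was lost (odds ratio 1.59 for FOSL1 in both against RELA only). 1 call was gained (odds ratio 2.16 for FOSL1 in RELA only against RELB only). Without mitochondrial matches, 1 call was lost (odds ratio 0.686 for NF-κB consensus in both against RELA only). With H3K27ac on the locus itself, 1 call was lost (odds ratio 1.34 for H3K27ac in RELA only against RELB only). 1 call was gained (odds ratio 1.83 for H3K27ac in both against RELA only). With genes of all types, 1 call was lost (odds ratio 1.61 for promoter in RELA only against RELB only). 1 direction turned (odds ratio 1.03 for promoter in both against RELA only). With a motif window of 100 bp, calls were lost (odds ratios 0.654 for NF-κB consensus in both against RELA only and 1.25 for AP-1 motif in RELA only against RELB only). Within 3 strata of RELA fold enrichment, 1 call was lost (odds ratio 0.630 for NF-κB consensus in both against RELA only). In distinct sequence within 3 strata of RELA fold enrichment, 1 call was lost (odds ratio 2.39 for FOSL1 in both against RELA only). Directions turned (odds ratios 1.54 for NF-κB consensus in both against RELA only and 1.35 for AP-1 motif in both against RELA only). In distinct sequence within 3 strata of RELB fold enrichment, 1 call was lost (odds ratio 2.97 for H3K27ac in both against RELB only). 1 direction turned (odds ratio 0.920 for AP-1 motif in both against RELB only). Within 10 kb, the counts were 2 chemokines and cytokines near loci and 2 AP-1 subunits near loci, against 1.28% of all protein-coding genes.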
